A study of Mus musculus with 5 samples.

Results

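Syncrip and the genes most related to it by sequence were followed in hematopoietic stem cells (HSCs) that had lost Syncrip. The family was taken by gene symbol as Syncrip, Hnrnpr, Rbm46, Rbm47, A1cf and Dnd1, and all 6 were found among the 24046 genes of the expression table. The members were chosen by name and not by their values. The comparison asks whether transcripts of the paralogs were higher when Syncrip was low.

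Bulk RNA sequencing was done on HSCs sorted from bone marrow of CD45.1 congenic mice that had been transplanted with Syncrip flox/flox marrow. WT libraries (WT 1, WT 2 and WT 3) came from Mx1 Cre- marrow, and KO libraries (KO 2 and KO 3) from Mx1 Cre+ marrow. Both genotypes therefore carried the floxed allele and both received polyinosinic:polycytidylic acid (pIpC), an interferon inducer that switches on Cre driven by the Mx1 promoter, 6 weeks after transplantation. The harvest was 9 weeks after the transplant, 3 weeks past pIpC, and donor-derived CD45.2+ cells that were lineage negative, Sca1+, cKit+, CD150+ and CD48- were sorted. Per the study's methods, donors and irradiated recipients were 6 to 8 weeks old, pIpC was given at 10 mg/kg on 2 days, and exons 3 and 4 of Syncrip lay between the loxP sites. The Mx1 promoter responds to interferon in hematopoietic cells and also in other tissues, and Cre was absent from the WT arm. The study's methods speak of biological replicates for its experiments in general, but neither they nor the labels tie these libraries to separate mice, so p-values measure the spread between these libraries, which may be in part technical.

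The proteins of this family bind RNA through RNA recognition motifs. SYNCRIP, also called hnRNP Q, and hnRNP R act in splicing, stability, transport and translation of mRNA. RBM47 and A1CF are cofactors of the cytidine deaminase APOBEC1 in C-to-U editing of mRNA, while RBM46 and DND1 are best known from germ cells.

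Translated from GENCODE M21 coding sequences, SYNCRIP and hnRNP R were identical at 521 of 616 aligned residues, or 84.6%. SYNCRIP was 55.9% identical to RBM46, 53.8% to RBM47, 48.9% to A1CF and 33.5% to DND1 over shorter local alignments. Hnrnpr was thus the closest relative by sequence, and RBM46 and RBM47 formed another close pair at 74.0% identity.

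The stretch removed by Cre defines the KO allele and is shown first, beside the same stretch of Hnrnpr, which Cre does not target. The study's text names exons 3 and 4 without a transcript, so numbering them by transcript Syncrip-201 is an assumption. In GENCODE M21 (GRCm38, the mm10 build named in the submitters' processing notes), exon 3 of transcript Syncrip-201 is at chr9:88479794-88479912 and exon 4 at chr9:88479571-88479678, both on the minus strand and both coding. Capitals mark the bases that differ between the genes, and 174 of the 227 bases were identical (76.7%).
Syncrip exons 3 and 4: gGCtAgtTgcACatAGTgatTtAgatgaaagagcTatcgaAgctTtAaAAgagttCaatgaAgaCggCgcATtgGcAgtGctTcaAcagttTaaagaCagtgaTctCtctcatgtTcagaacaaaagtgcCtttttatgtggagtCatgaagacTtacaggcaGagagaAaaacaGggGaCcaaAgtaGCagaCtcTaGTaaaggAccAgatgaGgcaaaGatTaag
Hnrnpr same stretch: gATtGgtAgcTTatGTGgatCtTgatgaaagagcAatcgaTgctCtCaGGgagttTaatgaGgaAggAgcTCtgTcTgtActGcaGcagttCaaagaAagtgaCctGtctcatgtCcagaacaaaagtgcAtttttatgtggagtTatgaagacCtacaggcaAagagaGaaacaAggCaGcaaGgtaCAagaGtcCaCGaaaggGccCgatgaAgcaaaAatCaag

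The joined sequence of exons 2 and 5 is printed because it shows where the reading frame ends once exons 3 and 4 are gone. It starts 15 bases before the junction, and capitals mark the stop codon.
Syncrip exon 2 to 5 junction: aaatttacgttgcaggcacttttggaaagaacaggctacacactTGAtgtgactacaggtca
The 227 floxed bases leave a remainder of 2 when divided by 3. In this transcript the stop came after 59 codons in place of 562. The floxed bases made up 13.5% of its coding sequence but only 2.40% of the transcript, so counts summed over the gene could still include RNA of the deleted allele.

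Syncrip fell to 18.5% of its WT mean in the KO libraries, and no paralog was called changed. The KO mean was 94.1% of the WT mean for Hnrnpr, 155% for Rbm47 and 62.7% for Dnd1, which was low in a single KO library. Rbm46 and A1cf had no read in any library. Values below are normalized read counts, in which the reads of a library were scaled by its size factor. Where 3 WT and 2 KO values follow each other, they are in the order WT 1, WT 2, WT 3 and KO 2, KO 3.

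Syncrip, the targeted gene, lies at chr9:88447009-88482574 on the minus strand. The WT libraries held normalized read counts of 1944 (WT 1), 1440 (WT 2) and 1794 (WT 3), and the KO libraries 294 (KO 2) and 343 (KO 3). Both KO libraries were far under every WT library, with 17.0% (KO 2) and 19.9% (KO 3) of the WT mean. Means were 1726 ± 259 for WT (SD, n = 3) and 319 ± 34.8 for KO (SD, n = 2). The log2 fold change was -2.43, with a 95% confidence interval from -2.93 to -1.92 (limma adjusted p = 0.0352 across 13661 genes). Of the 4 family members that passed the filter on low values, Syncrip was the only one called, where 0.00732% of all tested genes were called. Leaving out any WT library kept the fold change between -2.55 and -2.34, but limma's adjusted p was then 0.210 without WT 1, 0.164 without WT 2 and 0.192 without WT 3. After a correction of every library for a linear dependence on transcript length and GC content it was -1.53 (limma adjusted p = 0.138). Reads of an intact allele and reads of RNA without the floxed exons cannot be separated in counts per gene, and in bulk samples fewer cells of a type and less RNA per cell cannot be told apart.

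**Figure D1:**
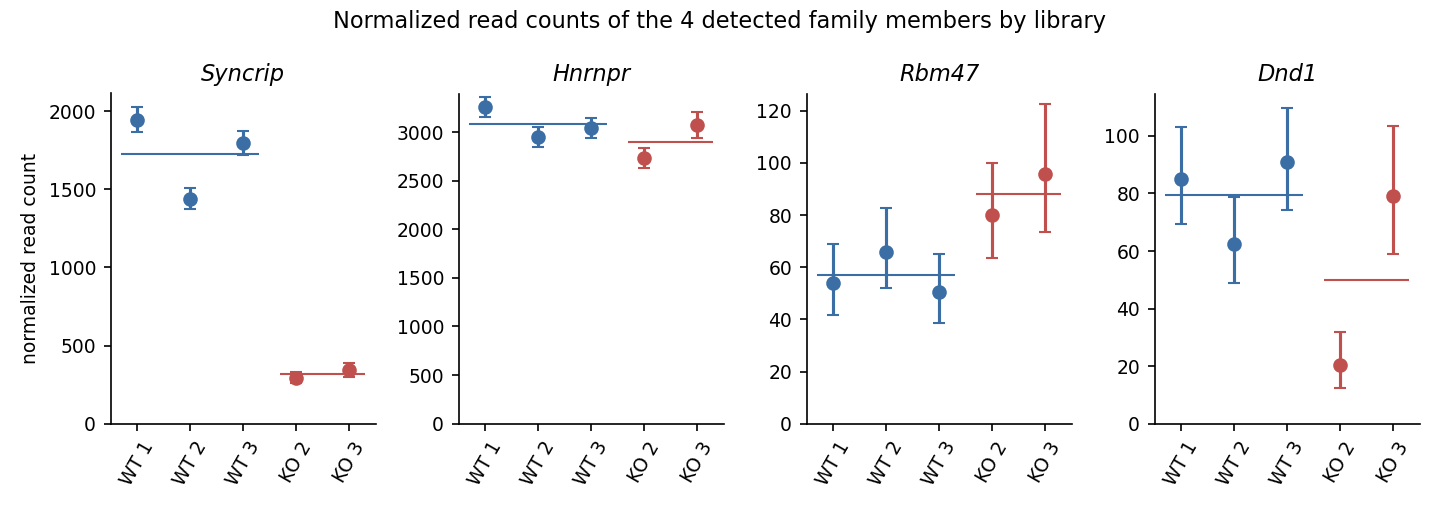
Normalized read counts (vertical axes, from 0, each gene on its own scale) in the 3 WT libraries (blue) and the 2 KO libraries (red). Points are libraries, bars are exact 95% Poisson intervals that cover counting error only, and lines are group means. The KO points of Syncrip lie at 294 and 343, under all WT points, while those of Hnrnpr lie at 2729 and 3071, within or just under the WT range.

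Hnrnpr, the gene of hnRNP R, lies at chr4:136310942-136359447 on the plus strand. The WT libraries held normalized read counts of 3256 (WT 1), 2948 (WT 2) and 3042 (WT 3), and the KO libraries 2729 (KO 2) and 3071 (KO 3). KO 2 was the lowest of the 5 libraries, KO 3 lay inside the WT range, and the groups overlapped. The KO mean of 2900 ± 242 (SD, n = 2) was 94.1% of the WT mean of 3082 ± 158 (SD, n = 3). The log2 fold change was -0.09, and its 95% confidence interval ran from -0.47 to 0.29 (limma adjusted p = 0.747), that is, from 0.723-fold to 1.22-fold. After the correction for transcript length and GC content the sign turned, and the log2 fold change was 0.48 (limma adjusted p = 0.214).

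Rbm47, the editing cofactor, lies at chr5:66016549-66173118 on the minus strand. The WT libraries held normalized read counts of 54.1 (WT 1), 66.0 (WT 2) and 50.6 (WT 3), and the KO libraries 80.2 (KO 2) and 95.7 (KO 3). Both KO libraries were above every WT library, as were 23.9% of all tested genes. In each library the value rested on 59 to 78 reads, and the counting intervals of KO 2 (63.4 to 100.1) and WT 2 (52.0 to 82.6) overlapped. The KO mean of 87.9 ± 10.96 (SD, n = 2) was 155% of the WT mean of 56.9 ± 8.06 (SD, n = 3). The log2 fold change was 0.62, but its 95% confidence interval from -0.38 to 1.62 included 0 (limma adjusted p = 0.375). It was 0.78 after the correction for transcript length and GC content (limma adjusted p = 0.396), and 0.18 when the correction used coding length and coding GC content, an alternative chosen after seeing the data (limma adjusted p = 0.842).

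Dnd1, a germ cell gene whose protein protects mRNAs from microRNAs and recruits deadenylases, is on chromosome 18. The WT libraries held normalized read counts of 84.9 (WT 1), 62.5 (WT 2) and 90.8 (WT 3), and the KO libraries 20.6 (KO 2) and 79.0 (KO 3). Only KO 2 was low, at 25.9% of the WT mean, whereas KO 3 was at 99.4%, so the groups overlapped. The counting intervals of KO 2 (12.6 to 31.8, from 20 reads) and KO 3 (59.0 to 104, from 52 reads) did not. The log2 fold change of -0.94 had a 95% confidence interval from -2.36 to 0.49 (limma adjusted p = 0.349). It was 0.01 without KO 2 and -1.88 without KO 3, each from 1 remaining KO library whose spread was taken from the other genes and libraries, so a single library decided the value.

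Values of other genes moved with KO 2. Of 9 adipocyte genes, the summed share of reads was 0.137% in KO 2 and at most 0.0032% in the other libraries, and Cidec, Ucp1 and Cidea were at 0 in all libraries but KO 2. Their part in the Dnd1 value was not tested. Dnd1 overlaps the coding gene Wdr55 on the opposite strand, and since use of strand in the counting is not given in the sources used here, reads from the overlap cannot be assigned. Wdr55 stood at 900, 901 and 1246 normalized reads in WT and at 1175 and 1068 in KO, and was not low in KO 2.

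Rbm46 (chr3:82837228-82876483, minus strand) and A1cf (chr19:31868764-31948995, plus strand) had 0 reads in each of the 5 libraries, so neither could be tested. With 12539599 to 22779536 reads per library, a count of 0 allows up to 3 reads, that is, 0.132 to 0.239 of every 1000000 reads. No fold is given for these genes. Transcripts of the partner enzyme of A1CF, Apobec1, were detected in all libraries, as described below.

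Levels were then compared between members per kilobase, because longer genes collect more reads. The order of the closest pair depended on the length used. Per kilobase of the union of exons, the WT levels of Syncrip (140 ± 21.0, SD, n = 3) and Hnrnpr (139 ± 7.10) did not differ beyond their spread, whereas per kilobase of coding sequence Hnrnpr (1626 ± 83.2) was above Syncrip (923 ± 138) in each of the 3 WT libraries. Per kilobase of the longest transcript the order was the opposite, with Syncrip (183 ± 27.4) above Hnrnpr (144 ± 7.35) in each of them. The exon union of Hnrnpr, 22199 bases, is set largely by a single transcript of 21452 bases. Dnd1 came next in WT, at 32.9 ± 6.20 per kilobase of exon union, and then Rbm47 at 7.94 ± 1.13. Among 12993 tested genes ranked per kilobase of exon union in WT, Syncrip stood above 52.0%, Hnrnpr above 51.8%, Dnd1 above 25.6% and Rbm47 above 11.04%. In KO libraries Hnrnpr was the highest member on both scales, at 131 ± 10.9 (SD, n = 2) per kilobase of exon union against 25.9 ± 2.83 for Syncrip. The KO values of Syncrip (23.9 and 27.9) and Dnd1 (8.52 and 32.7) per kilobase of exon union overlapped.

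The balance between Syncrip and Hnrnpr lay further toward Hnrnpr in both KO libraries. The log2 difference of Syncrip minus Hnrnpr in normalized read counts came to -0.74, -1.03 and -0.76 for WT and to -3.21 and -3.16 for KO. The groups were well apart, and the KO values lay closer together than the lowest and highest WT values did. The group means differed by -2.34 (two-sided exact permutation test, p = 0.1, the smallest that the 10 ways of choosing 2 of 5 libraries allow, so this design cannot reach 0.05). Per kilobase of coding sequence, Syncrip made up 33.1% to 37.7% of the pair's sum in WT libraries, 9.85% in KO 2 and 10.2% in KO 3.

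The summed level of the pair was lower in both KO libraries. Per kilobase of exon union it came to 305, 249.9 and 283 for WT and to 147 and 166 for KO. The KO mean of 157 ± 13.7 (SD, n = 2) was 56.1% of the WT mean of 279 ± 27.6 (SD, n = 3; exact permutation p = 0.1, again the smallest possible). Per kilobase of coding sequence the sum was 2549 ± 216 in WT and 1700 ± 146 in KO, or 66.7% of WT.

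**Figure D2:**
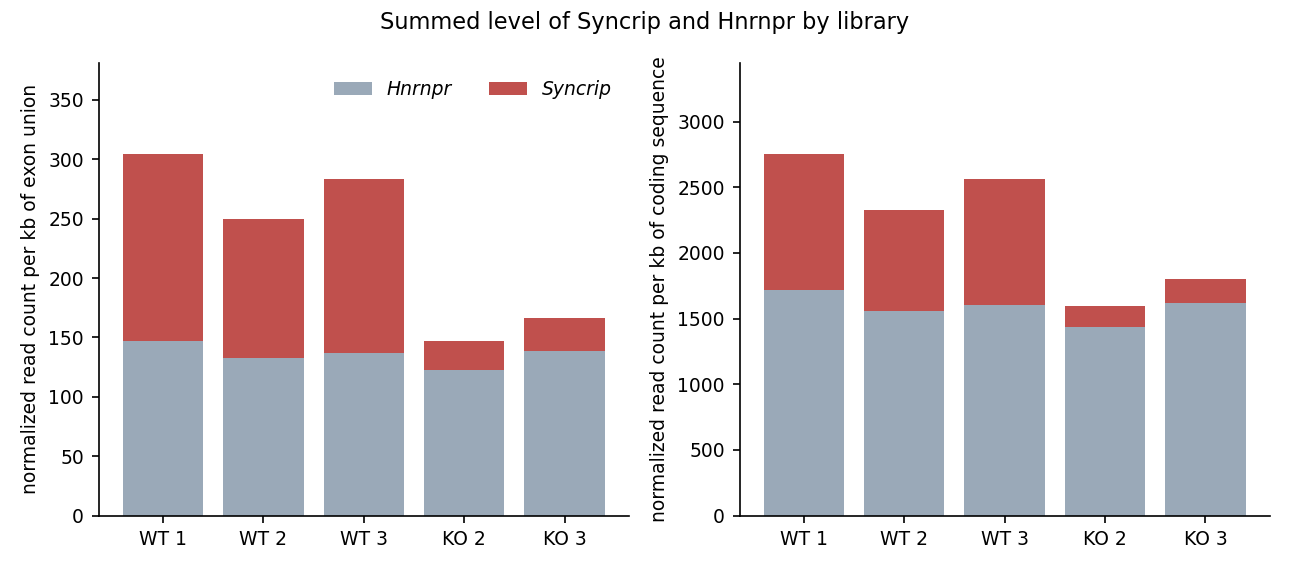
Stacked bars from 0 of normalized read count per kilobase for Hnrnpr (grey) and Syncrip (red) in each library, per kilobase of exon union (left) and of coding sequence (right). The red part shrinks in both KO libraries while the grey part stays within or under its WT range, and on the left the total is 147 and 166 in KO libraries against 249.9 to 305 in WT libraries.

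The interval of Hnrnpr was set against the size of change that would restore the sum. To make up for the lost Syncrip level, Hnrnpr would have to be at 1.46-fold of WT per kilobase of coding sequence. Per kilobase of exon union it would have to be at 1.82-fold, and per kilobase of the longest transcript at 2.04-fold. These needed folds come from group means and are given without an interval. The upper bound of the measured fold, 1.22, was under each of them, and it reached at most 1.36 when any 1 library was left out. After the correction for length and GC content, Hnrnpr was at 1.39-fold, with an interval from 1.08 to 1.80. The later correction for coding length and coding GC content gave 1.22-fold, with an interval from 0.95 to 1.55. Both upper bounds were above 1.46, although both corrections also made the fall of Syncrip smaller. Only RNA was measured, and protein levels are outside these values.

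Sequence shared between genes limits how reads could be assigned. The coding sequences of Syncrip and Hnrnpr had no exact run longer than 17 bases in common. Of the 50-base windows in the Syncrip coding sequence, 50.9% also occur in transcripts of Gm6501 or Gm20537, and of those of Hnrnpr, 32.5% occur in Gm6159. None of these 3 annotated genes has a row in the table under that symbol, and Gm20537 overlaps Syncrip on the same strand. How reads with more than 1 match were counted is not given in the sources used here, and the levels of Syncrip and Hnrnpr are uncertain to that extent. No coding window of Rbm46, Rbm47 or A1cf was shared, and 0.695% of those of Dnd1 were. Over all annotated transcript sequence, the share was 8.42% for Syncrip, 6.18% for Hnrnpr, 2.74% for Rbm47, 3.997% for Dnd1 (with Wdr55 among the genes) and 0 for Rbm46 and A1cf.

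**Figure D3:**
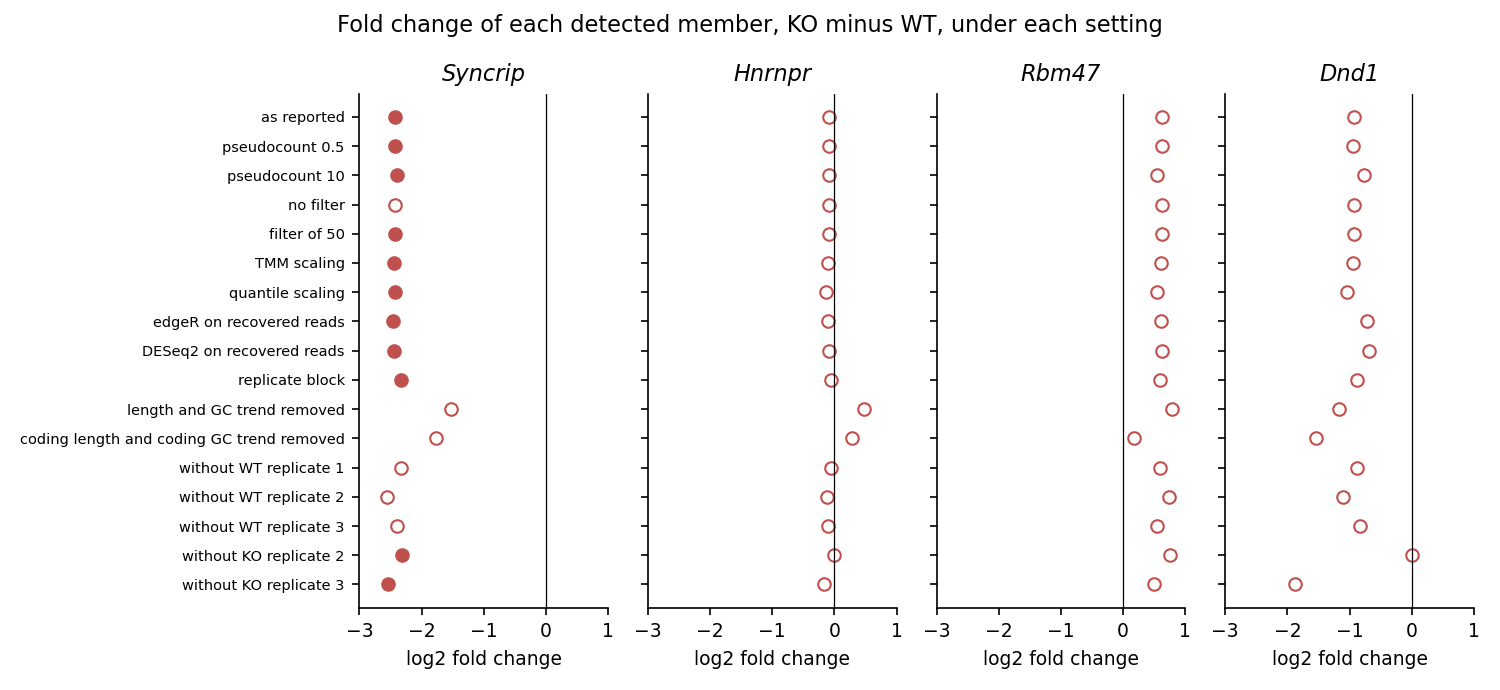
Log2 fold change, KO minus WT, of each detected member (horizontal axes) as reported and under 16 alternatives (rows). Filled points had an adjusted p under 0.05 and open points did not. Syncrip stays between -2.55 and -1.53 throughout, Hnrnpr lies between -0.17 and -0.0040 except at 0.48 and 0.28 where a length and GC trend was removed, Rbm47 stays between 0.18 and 0.78, and Dnd1 reaches 0.01 without KO 2.

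Genes whose proteins work with members of the family were taken from a list of 39, of which 38 had a row in the table and 35 passed the filter. None was called by limma or by edgeR (which called 0.0146% of all tested genes), and 8 of 35 had an unadjusted p under 0.05, as did 27.8% of all tested genes. DESeq2 on the recovered reads called 6 of the 34 with an adjusted p (17.6%), against 18.7% of all genes with one. The share of called partners was near that of all genes. Their median log2 fold change was -0.09, against 0.02 over all tested genes, and groups did not overlap for 18 of 35 (51.4%), against 47.1% of all tested genes.

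**Figure D4:**
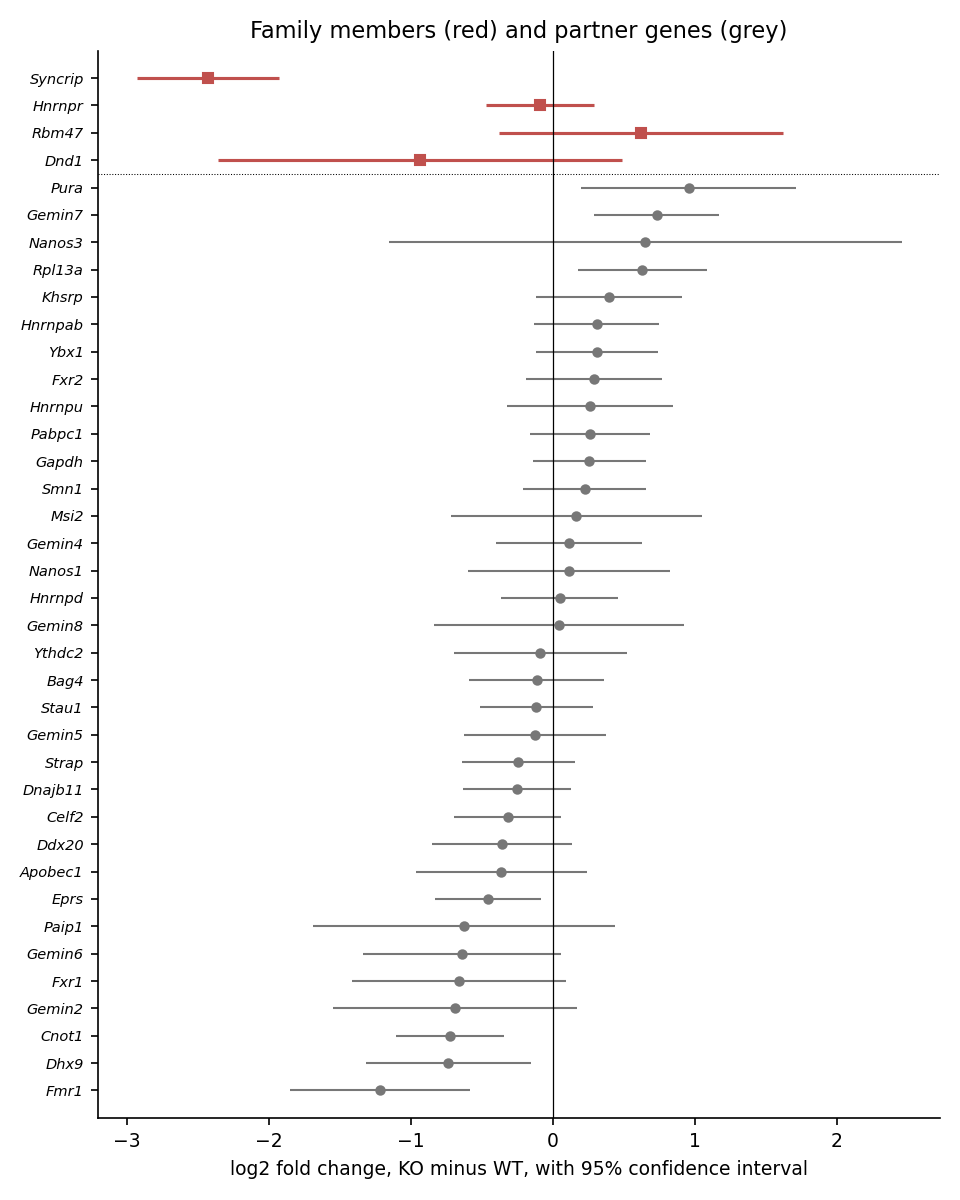
Log2 fold change, KO minus WT, with 95% confidence intervals from limma (horizontal axis) for the 4 tested members (red squares) and 34 of the tested partner genes (grey points, sorted by value). Syncrip at -2.43 lies under every partner gene plotted, whose values run from -1.22 to 0.96.

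SYNCRIP is part of complexes that protect mRNAs through a determinant in the coding region. For the complex on c-fos mRNA, the groups overlapped for Pabpc1, Paip1 and Hnrnpd, with log2 fold changes of 0.26 for Pabpc1, the poly(A)-binding protein, -0.63 for Paip1, its interacting protein, and 0.05 for Hnrnpd, which encodes AUF1. Without KO 3 the value of Pabpc1 was 0.056 and without KO 2 it was 0.47, and that of Paip1 was -0.24 without WT 1. Hnrnpd was at -0.017 without WT 2 and at -0.097 without KO 3. After the correction for transcript length and GC content, values were 0.64 for Pabpc1, 0.11 for Paip1 and 0.61 for Hnrnpd.

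In the complex on c-Myc mRNA, Igf2bp1, its central RNA-binding protein, had at most 3 reads in any library and was not tested. Dhx9, a helicase, had values of 1046, 1061 and 892 in WT libraries and 762 and 471 in KO libraries, and the log2 fold change came to -0.73 (limma adjusted p = 0.118). It was -1.08 without KO 2 and -0.39 without KO 3, each from 1 remaining KO library. After the correction for transcript length and GC content it was -0.36, and -0.15 after the later one for coding length and coding GC content. Ybx1, a cold shock domain protein, was at 0.31 (0.52 without KO 2 and 0.11 without KO 3) and Hnrnpu at 0.26 (0.68 without KO 2 and -0.16 without KO 3), and neither was called with all libraries.

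Genes of the C-to-U editing complex bear on Rbm47, A1cf and Syncrip alike. Apobec1, the deaminase, stood at 391, 324 and 317 normalized reads in WT and at 272 and 260 in KO. The KO values were below the WT range, as for 23.2% of all tested genes, and the log2 fold change of -0.36 had an interval from -0.97 to 0.24 (limma adjusted p = 0.390). Over the 6 genes of this list, log2 fold changes ran from -0.36 to 0.40. Celf2, a splicing regulator that binds the complex, was at -0.32. After the correction for transcript length and GC content, Celf2 was at 0.21 and Apobec1 at -0.11.

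The GAIT complex, which restrains translation of inflammatory mRNAs after interferon gamma, holds SYNCRIP with the products of Eprs, Rpl13a and Gapdh. Rpl13a, a ribosomal protein gene, stood at 8594, 5981 and 8126 normalized reads in WT and at 11779 and 11390 in KO. All KO values were above all WT values (log2 fold change 0.63, 95% confidence interval 0.18 to 1.09, limma adjusted p = 0.102, DESeq2 adjusted p = 0.0339). Eprs, the glutamyl-prolyl-tRNA synthetase gene, had a negative value, where log2 KO minus WT was -0.45 (limma adjusted p = 0.125) and -0.048 after the correction for transcript length and GC content, and Gapdh was at 0.26.

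SYNCRIP and hnRNP R both bind SMN, the survival of motor neuron protein that assembles spliceosomal particles. Smn1 itself stood at 1003, 1035 and 1180 normalized reads in WT and at 1288 and 1213 in KO, and log2 KO minus WT was 0.22 (limma adjusted p = 0.458). Among the 9 genes of the list, Gemin7 was the highest at 0.73 (limma adjusted p = 0.0842, DESeq2 adjusted p = 0.0081; 0.14 after the correction for transcript length and GC content), with values of 1197, 1242 and 1172 in WT libraries and 1751 and 2287 in KO libraries. Gemin2 was at -0.69, with -1.21 without KO 2 and -0.17 without KO 3, and its groups overlapped.

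Transport granules of neurons hold SYNCRIP with fragile X family proteins. Fmr1, which encodes the translational repressor FMRP, stood at 1799, 1162 and 1643 normalized reads in WT and at 820 and 513 in KO. Its log2 fold change was -1.22 (95% confidence interval -1.85 to -0.58, limma adjusted p = 0.0815, DESeq2 adjusted p = 0.0029), and it was -0.46 after the correction for transcript length and GC content (limma adjusted p = 0.256). Its paralogs had log2 fold changes of -0.66 (Fxr1) and 0.29 (Fxr2), and neither was called, with 0.10 and -0.33 after that correction. Fxr1 was at -1.07 without KO 2 and -0.25 without KO 3, and Fxr2 at 0.12 without WT 1 and 0.41 without WT 2. Pura, the gene of a single-stranded nucleic acid-binding protein, had values of 526, 654 and 521 in WT libraries, 739 in KO 2 and 1627 in KO 3, and its log2 fold change of 0.96 was 1.53 without KO 2, 0.39 without KO 3, 1.41 after the correction for transcript length and GC content and 0.020 after the later one for coding length and coding GC content.

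The Musashi proteins are RNA-binding proteins, and the study cites earlier work on MSI2 acting together with SYNCRIP in leukemia cells. Msi1 had at most 3 reads in any library. Msi2, the Musashi gene used by HSCs, stood at 702, 284 and 380 normalized reads in WT and at 403 and 560 in KO, and the groups overlapped (log2 fold change 0.17, limma adjusted p = 0.799, but 0.53 without WT 1, -0.12 without WT 2 and -0.071 without KO 3). Of the 6 germ cell partners of DND1 and RBM46, Nanos2 had no read and Meioc was not analysed here. Cnot1, the scaffold of the CCR4-NOT deadenylase that DND1 recruits, had values of 3836, 4182 and 3967 in WT libraries and of 2592 and 2255 in KO libraries. Its log2 fold change was -0.72 (95% confidence interval -1.10 to -0.34, limma adjusted p = 0.0815, DESeq2 adjusted p = 0.0021) and was -0.47 after the correction for transcript length and GC content and -0.21 after the later one for coding sequence, while Ythdc2, a helicase that acts with RBM46 in meiosis, was at -0.09.

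The 5 tested genes nearest to Syncrip in pattern were found by the root mean square distance of log2 values from the WT mean over the 5 libraries. Among them were Igip (distance 0.15), Tfpi (0.19), Ms4a2 (0.23) and Rab39b (0.25). Tfpi, a coagulation inhibitor, had 333, 208 and 207 in WT libraries and 38.0 and 51.6 in KO libraries. All KO values of these genes were under all WT values, as the choice of the genes fixes. Igip and Rab39b had at most 3 reads in each KO library. Of the paralogs, Dnd1 ranked 1511, Hnrnpr 5437 and Rbm47 10688 among 13660 genes by this distance.

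Some facts of the libraries stand beside these values. Depth was 21748781 to 22779536 reads in WT libraries, 18308876 in KO 2 and 12539599 in KO 3, so both KO libraries were shallower. All 6 HSC genes looked at, among them Hlf, Mecom, Procr, Fgd5 and Hoxb5, and all 4 genes of the positive gate were detected in every library, although Ptprc, the gene of CD45, was lower in KO 2 (2010) and KO 3 (1271) than in any WT library (3735 to 4635). Cd48, whose protein the sort excluded, was at 696, 601 and 768 normalized reads in WT and at 459 and 191 in KO. Slamf1, the gene of CD150, was at 480, 233 and 195 in WT and at 348 and 522 in KO. The HSC genes together took 0.0131% to 0.0330% of reads in WT libraries, 0.0175% in KO 2 and 0.0465% in KO 3. The share in KO 3 was the highest of the 5. A list of 12 myeloid genes took 6.21% to 7.49% of reads in WT libraries, 5.50% in KO 2 and 2.65% in KO 3, and 5 of the 12 were lower in both KO libraries than in all WT libraries, as were 23.2% of all tested genes. Of 7 lineage genes in the table, 3 were lower in both KO libraries than in all WT libraries (23.2% of all tested genes), Itgam and Cd48 among them, and the list took 0.0515% to 0.0730% of reads in WT libraries, 0.0344% in KO 2 and 0.0145% in KO 3. Epithelial genes took at most 0.0066% of reads and germ cell genes at most 0.00071%. Alb, Ttr and Mael were at 0, while other genes of both lists were detected. Krt18 was at 318 to 1169 normalized reads over the libraries, highest in KO 3, and Epcam at 4.1 to 40.8. Of the germ cell genes, Ddx4 was at 27.3 to 71.6 and Sycp3 at 11.3 to 53.5. The part of these differences in the values of the family was not tested.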

How the data were processed

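Libraries were made from total RNA with the SMART-Seq v4 Ultra Low Input kit, per the labels, and the submitters' processing notes name STAR, featureCounts, DESeq2 and mm10. The authors deposited 1 table of normalized signal, whose values are gene counts scaled by library size factors. A table of the authors' own comparison (log2 fold changes and p-values) was not used. In each column the values were whole multiples of the smallest positive value (100% within a tolerance of 0.01), so whole reads were recovered. Intervals and floors from them cover counting error only.

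The 13661 genes that reached 10 in 2 or more libraries were tested with limma 3.58.1 in R 4.3.3 (lmFit, eBayes with trend) on log2(value + 1), a scale that understates changes of low genes, with all 5 libraries, no covariate and Benjamini-Hochberg adjustment over all tested genes. A gene was called at an adjusted p under 0.05. edgeR 4.0.16 (quasi-likelihood test) and DESeq2 1.42.0 on recovered reads, other pseudocounts, filters and scalings, a replicate block, removal of length and GC trends, and removal of each library were the alternatives. The limma step was tested on simulated data. Lengths, positions and coding sequences came from GENCODE M21 (GRCm38), matched by symbol. Protein identity was taken from local alignments with BLOSUM62. Named genes were the 6 members, 17 listed partners, any other partner called and the 5 nearest patterns. Some further partners (Gapdh, Gemin2, Gemin7, Fxr1, Fxr2, Pura and Cnot1) were named after their values were seen. A few genes that the rule or the lists hold are not reported here. The members and lists were chosen with earlier results of these data known.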

Additional observations from a re-analysis of the deposited data

How the results depend on the processing

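The fold change of Syncrip kept its sign under all alternatives, and its call was lost without a filter (-2.43, limma adjusted p = 0.0503), after removal of the length and GC trend (-1.53, adjusted p = 0.138) and with the coding length and coding GC trend removed (-1.76, adjusted p = 0.152; chosen after seeing the data). Over the removal of single libraries the fold change ran from -2.55 to -2.32. The call was also lost without WT 1 (limma adjusted p = 0.210), WT 2 (0.164) or WT 3 (0.192). Hnrnpr turned positive with the length and GC trend removed (0.48) and with the coding trend removed (0.28), and Dnd1 did without KO 2 (0.010). Over the removal of single libraries, Hnrnpr ran from -0.17 to -0.0040, Rbm47 from 0.50 to 0.75 and Dnd1 from -1.88 to 0.010. The cause of these changes was not tested.

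The count of genes called, 1 as reported, became 2 under edgeR and under a pseudocount of 10, 2279 with DESeq2, 6 with the replicate block, 0 without a filter and with either trend removed, and from 0 to 3024 without single libraries. It was 3024 without KO 2, 4 without KO 3 and 0 when any 1 WT library was left out. Members called numbered 0 without a filter and with either trend removed, and 0 to 1 without single libraries. Partner genes called, 0 as reported, numbered 6 with DESeq2 and from 0 to 7 without single libraries. The 7 were called without KO 2, among them Cnot1, Gemin7, Hnrnpu, Fmr1, Pura and Dhx9.

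Of the named partners, which limma did not call, signs turned for Paip1 (0.11), Celf2 (0.21), Fxr1 (0.10), Fxr2 (-0.33) and Ythdc2 (0.45) with the length and GC trend removed, for Apobec1 (0.0031), Fxr1 (0.013) and Ythdc2 (0.56) with the coding trend removed, for Hnrnpd with quantile scaling (-0.00095), for Hnrnpd (-0.017) and Msi2 (-0.12) without WT 2, for Ythdc2 (0.033) without WT 3, and for Hnrnpd (-0.097), Hnrnpu (-0.16), Msi2 (-0.071) and Ythdc2 (0.015) without KO 3. The other named partners kept their sign over all alternatives, with ranges of 0.056 to 0.64 for Pabpc1, 0.010 to 0.52 for Ybx1, -1.08 to -0.15 for Dhx9, -0.55 to -0.022 for Eprs, 0.40 to 0.73 for Rpl13a, 0.060 to 0.40 for Gapdh, 0.18 to 0.48 for Smn1, -1.21 to -0.17 for Gemin2, 0.14 to 0.93 for Gemin7, -1.55 to -0.46 for Fmr1, 0.020 to 1.53 for Pura and -0.82 to -0.21 for Cnot1. Over all alternatives, Hnrnpd reached 0.61, Hnrnpu 0.88, Msi2 0.69 and Ythdc2 ran from -0.22 to 0.56. Without single libraries the upper ends were 0.20, 0.68, 0.53 and 0.033.

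The groups share replicate numbers 2 and 3. Deviations from the group means correlated at -0.06 for the libraries numbered 2 and at -0.18 for those numbered 3 across genes. With only KO 2 and KO 3 in a group, the deviation of KO 3 is the exact opposite of that of KO 2. These correlations therefore cannot tell whether the numbers mark pairs. With the replicate block, Syncrip was at -2.34 (limma adjusted p = 0.0289), Hnrnpr at -0.05, Rbm47 at 0.59 and Dnd1 at -0.88, with no call changed among members.

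The difference of Syncrip minus Hnrnpr (KO minus WT -2.34) stayed between -2.43 and -2.29, and the summed level (-123 per kilobase of exon union) between -137 and -109.8 without single libraries. The sum takes no pseudocount, so that alternative gave no value. A depth of 12539599 reads in KO 3 and 20 to 106 reads per library for Rbm47 and Dnd1 limit their precision.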
